A study of Mus musculus with 3 samples.

Results

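A set of 8 genes of the sterol pathway was followed through 3 sorted cell populations of the mouse spleen. They are Srebf2 and Insig1, which set the output of the pathway, and Hmgcs1, Idi1, Fdft1, Sqle, Lss and Cyp51, which encode enzymes of sterol synthesis. Members were all probe sets whose platform annotation gives 1 of these symbols alone, which came to 21 probe sets for the 8 genes, of 45037 probe sets for 18193 genes. None of the 8 genes encodes a lipoprotein receptor, so the uptake side is described from other genes further on. RNA was hybridised to 1 Affymetrix mouse array per population. The populations were Spic-negative monocytes (GFP-, positive for CD11b and Ly6C), Spic-positive monocytes (GFP+, positive for the same proteins) and red pulp macrophages (high for the surface protein of Adgre1 and for GFP). All cells came from adult Spic(igfp/+) mice, in which 1 Spic allele carries the GFP reporter, so every group had the same genotype and none was without the reporter. The sources used here do not say how many mice an array stands for. With 1 array per group no spread between animals can be measured and no p-value was computed, so each difference below is a difference between single arrays. Where 3 levels follow each other without labels, they are those of the Spic-negative monocytes, then of the Spic-positive monocytes, then of the macrophages.

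Cells make cholesterol from acetyl-CoA by way of mevalonate, isoprenoid units, squalene and lanosterol. The transcription factor SREBP-2 turns on most genes of this route when sterols in the endoplasmic reticulum are low, and INSIG proteins hold it back when sterols are plentiful. Macrophages that engulf whole cells take up cholesterol with their cargo, and red pulp macrophages engulf aged red blood cells.

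Promoter windows were looked up because the 8 genes share SREBP-2 as a textbook regulator. RefSeq windows of the GRCm38.p6 build, from 250 bases before to 50 bases after a transcription start, matched 6 of the 8 members, Hmgcs1, Idi1, Insig1, Srebf2, Lss and Cyp51. The 250 bases before the start are shown for Insig1, Cyp51 and Hmgcs1. On the probe set with the highest mean, which stands for a gene, these 3 had the largest gaps between the monocyte arrays. Also shown is Srebf2, the member that was lowest in macrophages on each of its probe sets. Capitals mark CCAAT, the box bound by NF-Y, on either strand (read as ATTGG on the other), and TCACCNCA, a short form of the sterol regulatory element.
Insig1 (chr5:28071162-28071411, plus strand): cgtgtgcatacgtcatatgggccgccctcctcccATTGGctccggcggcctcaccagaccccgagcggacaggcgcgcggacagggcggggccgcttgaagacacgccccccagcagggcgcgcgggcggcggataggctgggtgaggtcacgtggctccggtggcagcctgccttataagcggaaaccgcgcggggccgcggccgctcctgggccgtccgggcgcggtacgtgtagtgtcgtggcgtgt
Cyp51 (chr5:4104698-4104947, minus strand): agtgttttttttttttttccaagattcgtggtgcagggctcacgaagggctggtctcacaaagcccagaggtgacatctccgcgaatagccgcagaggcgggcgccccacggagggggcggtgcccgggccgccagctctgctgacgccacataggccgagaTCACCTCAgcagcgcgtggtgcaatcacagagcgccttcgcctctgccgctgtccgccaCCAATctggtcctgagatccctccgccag
Hmgcs1 (chr13:119690101-119690350, plus strand): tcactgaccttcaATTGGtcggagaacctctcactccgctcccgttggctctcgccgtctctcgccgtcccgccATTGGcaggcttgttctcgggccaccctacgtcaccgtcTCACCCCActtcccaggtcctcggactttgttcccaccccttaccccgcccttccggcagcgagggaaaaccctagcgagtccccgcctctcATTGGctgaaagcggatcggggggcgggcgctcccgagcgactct
Srebf2 (chr15:82147019-82147268, plus strand): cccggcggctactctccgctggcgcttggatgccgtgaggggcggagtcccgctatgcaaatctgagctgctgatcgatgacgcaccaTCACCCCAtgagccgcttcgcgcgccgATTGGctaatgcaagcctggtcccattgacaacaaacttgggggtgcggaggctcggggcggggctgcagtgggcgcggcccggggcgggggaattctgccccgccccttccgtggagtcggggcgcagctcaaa

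CCAAT was found in 6 of the 6 member windows and in 37.4% of all 32851 windows, counting both strands. GGGCGG, the GC box, was likewise in 6 of 6 windows against 35.7%, and the E-box CACGTG in 1 of 6, that of Insig1, against 7.15%. The full sterol regulatory element, with 1 base left free, was in 0 of 6 member windows and in 0.234% of all windows. TCACCNCA, which was chosen after the windows had been read and which overlaps that full element where N is C, was in 3 of 6 member windows against 4.42%. Its first base lay 137 bases before the start of Hmgcs1, 162 before that of Srebf2 and 88 before that of Cyp51. These matches describe letters in a window and were not tied to binding.

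The gene behind the sort followed the labels, with log2 levels of Spic at 5.66, 9.22 and 12.23. Of the 10 red pulp macrophage markers, 10 passed 2-fold upwards between Spic-negative monocytes and macrophages, against 19.6% of all genes. Spic and Adgre1 are among the 10, and the macrophages were sorted by the Spic reporter and the Adgre1 protein. The rise of these genes therefore follows from the sort and is no separate support for cell identity. Of 6 classical monocyte markers, 6 were above the floor on both monocyte arrays. Most genes were too: of the 12375 compared, 10955 passed the floor on the Spic-negative array and 11429 on the Spic-positive one. The count of 6 therefore says little about cell identity. The 6 monocyte markers were all lower on the Spic-positive than on the other monocyte array, by a median difference of -0.69, with Vcan and Itgam beyond 2-fold. The floor is log2 5.02, the median of all probe sets, and levels under it are near background. The Spic-positive array differed in its controls: 18 of 18 hybridization control probe sets, spiked in at a fixed amount, were brighter on it than in Spic-negative monocytes, with a median difference of 2.16. The Gapdh control's 3' minus 5' difference was 0.48, 2.25 and 1.61 on the 3 arrays in the same order, and that of the beta-actin control 0.74, 0.57 and 1.13, so only the first of these controls set the Spic-positive array highest. The part of these control differences in the sterol values was not tested.

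In Spic-positive monocytes most sterol genes were a little lower than in Spic-negative monocytes. On the probe sets that stand for the genes, Insig1, Cyp51 and Hmgcs1 were the lowest relative to them. With the mean of a gene's probe sets Idi1 was at -0.92, beyond Cyp51 at -0.81 and Hmgcs1 at -0.61. Of the 8 members, 7 had a difference below 0, with a median of -0.37 on the log2 scale, while 55.0% of the 12375 genes compared were below 0 with a median of -0.06. At the brightness of these genes the general shift was larger, -0.14 over the 7971 genes with a floor at the 75th percentile. Beyond 2-fold lay only Insig1, 1 of 8 against 3.06% of all genes, and no member was 2-fold higher, against 3.49%. At 1.5-fold 3 of 8 members were lower, against 12.6%, and 0 of 8 higher, against 10.4%. Quantile normalization again and cyclic loess each left 5 of 8 members below 0, since Sqle and Srebf2 changed sign. The members' median was then -0.19 each time, beside 0.03 and 0.04 over all genes. Of the members 0 lay beyond 2-fold, because Insig1 then stood at -0.88 and -0.89. Under the alternatives 5 to 8 members were below 0, and between 45.7% and 64.3% of all genes, the latter with the floor at the 75th percentile.

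**Figure D1:**
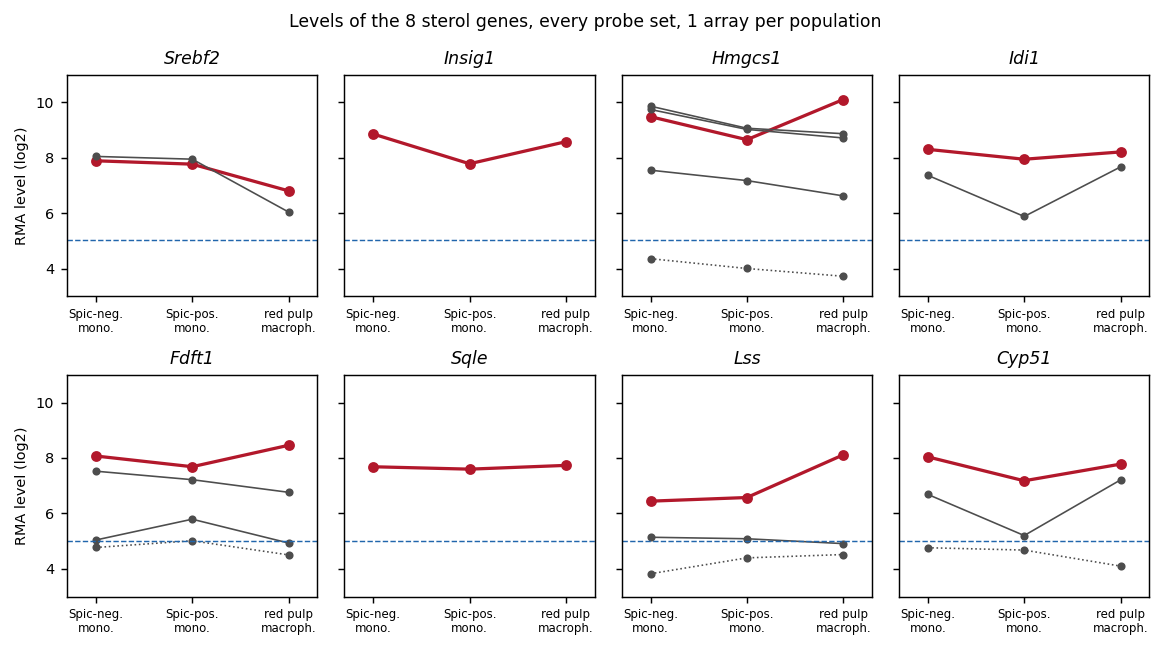
RMA levels (log2, vertical axis) of every probe set of the 8 genes on the 3 arrays (horizontal axis), 1 line per probe set. Red lines are the probe sets that stand for a gene, grey lines the further ones, dotted lines those under the floor on every array, and the blue dashed line is the floor at 5.02. Insig1, Idi1 and Cyp51 dip on the Spic-positive array on each solid line, while both lines of Srebf2 drop on the macrophage array.

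Srebf2, which encodes SREBP-2, was measured by 2 probe sets that gave the same picture. The first had levels of 7.89 and 7.77 in the Spic-negative and the Spic-positive monocytes and 6.80 in the macrophages, and the second had 8.04, 7.95 and 6.04. The monocyte arrays were nearly level and the macrophage array was the lowest on both. Between macrophages and Spic-negative monocytes the difference was -1.08 on the first probe set, a ratio of 0.47, and -2.01 on the second, a ratio of 0.25. Against Spic-positive monocytes it was -0.96 and -1.91. Srebf2 stayed below 0 in both macrophage comparisons under all 8 alternatives that kept the 2-fold threshold, between -1.54 and -1.04 against Spic-negative monocytes.

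Insig1 encodes the endoplasmic reticulum protein that retains SREBP-2 when sterols are abundant, and it is itself turned on by SREBP-2. Its single probe set had levels of 8.85 and 7.78 in the Spic-negative and the Spic-positive monocytes and 8.58 in the macrophages. The Spic-positive array was the low one, and the other two lay close together. Spic-positive monocytes differed from Spic-negative monocytes by -1.07, a ratio of 0.48, and macrophages differed by -0.28 from Spic-negative and by 0.80 from Spic-positive monocytes. No second probe set was there to check it.

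Hmgcs1 encodes the cytosolic synthase that makes HMG-CoA, the precursor of mevalonate, and had 4 probe sets above the floor. On the one that stands for the gene the levels were 9.48, 8.65 and 10.10. A further 2 gave 9.86, 9.06 and 8.86, and 9.74, 9.02 and 8.71, and the last gave 7.55, 7.17 and 6.62. All 4 were lower in the monocytes with Spic than in those without, by differences from -0.83 to -0.38. They disagreed on macrophages: the first was 0.62 above Spic-negative monocytes, and the other 3 were between -1.03 and -0.93. The direction of Hmgcs1 in macrophages therefore depends on the probe set, and the mean over its 5 probe sets gave -0.59. The remaining probe set was under the floor on all arrays.

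Idi1 encodes the isomerase that readies isoprenoid units for joining. Levels on the probe set that stands for it were 8.30, 7.94 and 8.21, and on the other 7.36, 5.88 and 7.67. The Spic-positive array was the lowest on both, but by unequal amounts, with differences from Spic-negative monocytes of -0.36 and -1.48. Macrophages lay on either side of Spic-negative monocytes, at -0.09 and 0.30.

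Fdft1, squalene synthase, joins isoprenoid chains into squalene and so commits them to sterols. Its first probe set gave 8.07, 7.68 and 8.46 and its second 7.52, 7.22 and 6.76, while a dim one near the floor gave 5.04, 5.79 and 4.93. The brighter pair were lower on the Spic-positive monocyte array, with -0.39 and -0.31, and the dim one was higher, with 0.75. For macrophages against Spic-negative monocytes they gave 0.39, -0.76 and -0.11, so no direction can be named. Against Spic-positive monocytes the probe set that stands for the gene gave 0.77, but the gene was at -0.26 with the mean of its probe sets, -0.66 with their median and -0.46 without multi-transcript probe sets. Between the monocyte arrays the mean and the median gave 0.08 and 0.22. The fourth probe set was under the floor on every array.

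Sqle encodes squalene epoxidase, a rate-limiting oxygen-dependent step. Its single probe set had levels of 7.68, 7.60 and 7.73. All 3 arrays lay within 0.14 of each other, the smallest range of the 8 genes on the probe sets that stand for them.

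Lss, lanosterol synthase, closes squalene epoxide into the first sterol ring system. On the probe set that stands for it the levels were 6.44, 6.57 and 8.11, with macrophages the high array. That is a difference of 1.67 from Spic-negative monocytes, a ratio of 3.18, and of 1.54 from Spic-positive monocytes. The other probe set above the floor did not show this, with levels close to the floor at 5.14, 5.09 and 4.91 and macrophages the lowest, and the remaining one was under the floor. The higher level of Lss in macrophages thus rests on 1 probe set, whose ID ends in _s_at, a mark of probes that can bind several transcripts.

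Cyp51 encodes the lanosterol demethylase. Its levels were 8.04, 7.18 and 7.78 on the probe set that stands for it and 6.68, 5.20 and 7.21 on the second, and the remaining one was under the floor. Spic-positive monocytes were again the low array, with differences of -0.86 and -1.48 from Spic-negative monocytes. Macrophages stood above Spic-positive monocytes by 0.60 and 2.01, and lay on either side of Spic-negative monocytes, at -0.26 and 0.52.

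**Figure D2:**
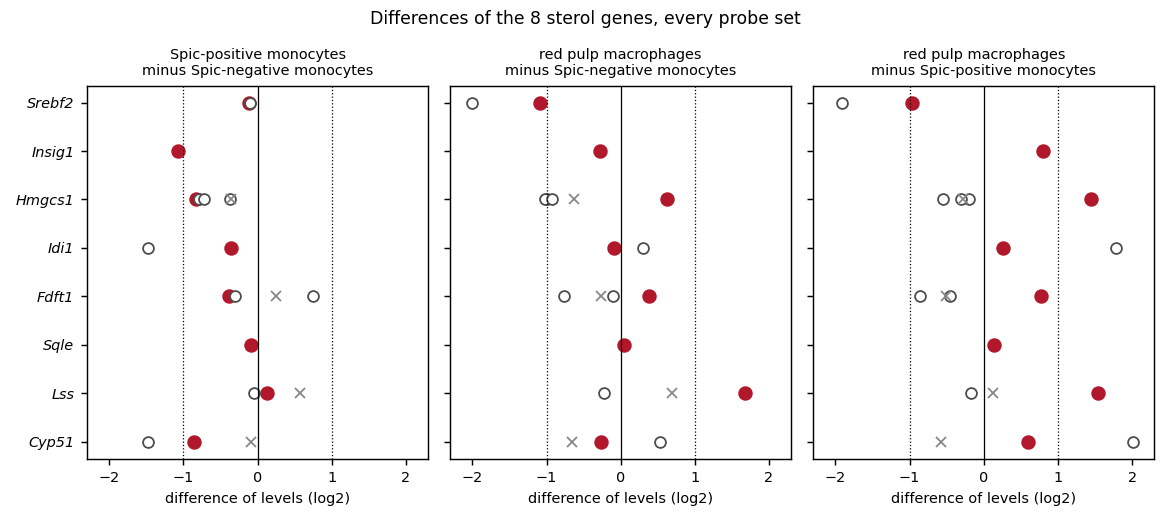
Differences of log2 levels (horizontal axis) for each of the 8 genes (vertical axis) in the 3 comparisons. Filled red points are the probe sets that stand for a gene, open points further probe sets above the floor, crosses probe sets under it, and dotted lines mark 2-fold; 15 of 17 probe sets above the floor lie below 0 in the left panel, while in the other panels probe sets of Hmgcs1, Fdft1 and Lss fall on both sides of 0.

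Counted over single probe sets, 17 of the 21 were above the floor on at least 1 array. Between the monocyte arrays 15 of 17 were below 0, against 55.8% of all probe sets above the floor, and 3 of 17 at least 2-fold lower, 1 each of Insig1, Idi1 and Cyp51, against 5.1% of those 25800 probe sets. None was 2-fold higher, against 3.19%. Probe sets of 1 gene share the RNA and the array, so they are no replicates. The pooled SD over probe sets of the same member was 0.45 in this comparison, and 0.76 and 0.94 when macrophages were set against the Spic-negative and the Spic-positive array, so the probe sets of a gene were closer together in the monocyte comparison.

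In red pulp macrophages the sterol genes showed no common direction against Spic-negative monocytes. Lss was the 1 of 8 members at least 2-fold higher, against 19.6% of all genes, and Srebf2 the 1 of 8 at least 2-fold lower, against 11.3%. Of the 8, 4 were below 0, as were 48.2% of all genes, and the median was -0.02 beside 0.03 over all genes. Over single probe sets 1 of 17 was at least 2-fold higher, against 16.9%, and 3 of 17 lower, against 14.8%, namely both of Srebf2 and 1 of Hmgcs1, and 11 of 17 were below 0, against 53.2%. Against Spic-positive monocytes, 1 of 8 members was below 0, compared with 46.1% of all genes, and the median was 0.69 beside 0.10. This median depended on the probe set rule: it was 0.32 with the mean of a gene's probe sets, 0.10 with their median and -0.02 without multi-transcript probe sets. Beyond 2-fold upwards lay 2 of 8, Hmgcs1 and Lss, against 22.0%, and downwards 0 of 8, against 11.6%. The comparisons share arrays, so the low Spic-positive values enter both the monocyte comparison and this one. Over single probe sets 4 of 17 were at least 2-fold higher in this comparison, against 19.9%, and 1 of 17 lower, against 14.7%. The 4 were 1 each of Hmgcs1, Idi1, Lss and Cyp51 and the 1 was of Srebf2, and 8 of 17 were below 0, against 49.7%, with a median of 0.14.

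On 6 of the 8 genes the Spic-positive array was the lowest of the 3, as it was for 34.7% of all genes, a count made after the levels had been seen. Lss was lowest in Spic-negative monocytes, as were 25.4% of all genes, and Srebf2 in macrophages, as were 39.9%. The count for the Spic-positive array was between 4 and 6 of 8 under the alternatives, against 27.9% to 41.4% of all genes. Of the single probe sets 8 of 17 had their lowest level on this array, against 33.3% of all probe sets. Of the other probe sets 8 were lowest in macrophages, against 43.9%, and 1 in Spic-negative monocytes, against 22.8%. The dip was on both probe sets above the floor for Idi1 and Cyp51, on the only probe set of Insig1, and on 1 of several for Hmgcs1 and Fdft1. Sqle was lowest there on its only probe set, but within a range of 0.14. Its difference between the monocyte arrays changed sign after quantile normalization again and cyclic loess.

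Genes of other cells moved with these comparisons. Of all genes, 3.49% were at least 2-fold higher on the Spic-positive and 19.6% on the macrophage array, each against Spic-negative monocytes. For B cell markers 9 of 10 genes passed 2-fold upwards from the Spic-negative to the Spic-positive array, with mean log2 levels of 6.19, 7.93 and 7.28 on the 3 arrays, and 4 of the 10, Cd79a, Pax5, Ebf1 and Fcer2a, were under the floor in Spic-negative monocytes. Erythroid markers were 2-fold higher in macrophages than in Spic-negative monocytes for 10 of 10 genes, with mean levels of 4.60, 4.80 and 9.84, and Slc4a1, Klf1, Car2, Hemgn and Rhag were under the floor on both monocyte arrays. Progenitor markers were 2-fold higher on the Spic-positive than on the Spic-negative array for 3 of 3 genes, with a median difference of 2.16. Of the dendritic cell markers 3 of 5 were, namely Ccr7 (4.05), Itgax (3.14) and Zbtb46 (1.25). The others were Dpp4 at 0.61 and Flt3 at -0.56, and Xcr1 was under the floor on every array. Zbtb46 and the progenitor marker Kit were under the floor in Spic-negative monocytes. In macrophages NK cell markers were 2-fold higher than in Spic-negative monocytes for 4 of 6 genes, T cell markers for 5 of 8 and plasma cell markers for 4 of 6. On the Spic-negative array only 2, 4 and 5 genes of these lists, in that order, were above the floor. Gzma, Gzmb, Eomes, Cd3d, Cd3g, Cd28 and Tnfrsf17 passed it on the macrophage array alone, so they were compared only because they were high there. Cell cycle genes were 2-fold higher in 6 of 18 on the Spic-positive and in 17 of 18 on the macrophage array, against Spic-negative monocytes, with mean levels of 6.70, 7.34 and 9.30. Their part in the sterol values was not tested, and in sorted bulk samples fewer cells of a type and less RNA per cell cannot be told apart.

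The rest of the pathway was read from a list of 37 further sterol genes, of which 29 were compared. Against Spic-negative monocytes, none of the 29 was higher by 2-fold on the Spic-positive array, 2 were lower by that much, and 19 were below 0, with a median of -0.19. The shares of all genes were 3.49%, 3.06% and 55.0%, and 64.3% were below 0 with the floor at the 75th percentile, where 19 of 27 of these sterol genes were. The 2 were Sc5d and Msmo1, desaturase and methyl oxidase of the sterol ring. Sc5d had levels of 7.47, 6.43 and 7.68, and Msmo1 had 8.53, 7.53 and 8.04. Both were lowest on the Spic-positive array, like Insig1 and Cyp51, but their dimmer probe sets differed by -0.10 and 0.30 between the monocyte arrays, against -1.04 and -1.0.

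Steps after lanosterol were the lowest group in the monocyte comparison, with a median of -0.43 over 8 genes. The sterol isomerase Ebp was at -0.68 and Lbr, a sterol reductase that also anchors chromatin at the nuclear envelope, at -0.65, while the reductase Dhcr7 was at 0.26. The 4 other mevalonate genes had a median of -0.34, with the farnesyl diphosphate synthase Fdps at -0.52, Pmvk and Mvd, the last kinase and the decarboxylase of the mevalonate route, at -0.37 and -0.31, and the mevalonate kinase Mvk at 0.47. Sterol sensing genes had a median of -0.17 over 10 genes, and the site-2 protease Mbtps2, which releases SREBP from the membrane, was the lowest of them at -0.81. Scap, the escort of SREBP, was at -0.19, and Srebf1, which encodes the related factor SREBP-1, at -0.01.

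Uptake genes lay around 0 in Spic-positive monocytes. The 7 genes compared of lipoprotein uptake and cholesterol release from lysosomes had a median of 0.13. On the probe sets that stand for them, 0 of 7 were beyond 2-fold in either direction, against 3.49% of all genes higher and 3.06% lower. Lipa, the lysosomal lipase that frees cholesterol from lipoproteins, had 10.36, 10.98 and 11.35 on the probe set that stands for it, 0.62 higher in Spic-positive monocytes. Npc1 and Npc2, which carry cholesterol out of lysosomes, were at 0.30 and -0.24. The scavenger receptor Scarb1 was at -0.34 on the probe set that stands for it. Its further probe sets were at -1.03, which is beyond 2-fold, and -0.05. Mylip, a ubiquitin ligase for lipoprotein receptors, was at -0.01. The difference between the uptake genes and the synthesis genes was not tested.

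In macrophages the further sterol genes went both ways against Spic-negative monocytes, with 7 of 29 higher by 2-fold, 3 lower by 2-fold and a median of 0.21. These counts lie near the 19.6% and 11.3% of all genes, so the genes named next are a description. Higher were the sterol reductase Tm7sf2, with levels of 6.52, 6.32 and 7.75, and the ketoreductase Hsd17b7 on 1 of 3 probe sets, with a difference of 1.25 beside 0.39 and -0.28. In the sensing group Scap (1.23), Insig2 (1.08), Srebf1 (1.12) and Erlin2 (1.60) were higher. Insig2, the second INSIG gene, was higher on each of 3 probe sets, by 1.08, 1.33 and 1.12, whereas Insig1 stood at -0.28 in the same comparison. Srebf1 and Srebf2 lay on opposite sides of 0, at 1.12 and -1.08. A second, dim probe set of Scap went the other way, with a difference of -0.80 in macrophages.

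Lrp8, a receptor of the lipoprotein receptor family, was the remaining gene higher in macrophages, with 6.03, 6.52 and 8.34 on its brighter probe set and a difference of 2.31. Lower were Lbr, at -1.53, Erlin1, which takes part in sterol-regulated degradation, at -1.12, and the large lipoprotein and hemopexin receptor Lrp1, at -1.12. A second probe set of Lrp1 stood at 2.41, and the probe sets of Lipa ranged from -2.04 to 1.0, so neither gene has a settled direction in macrophages. Against Spic-positive monocytes, 9 of 29 passed 2-fold upwards and 1 downwards, against 22.0% and 11.6% of all genes, with a median of 0.39.

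**Figure D3:**
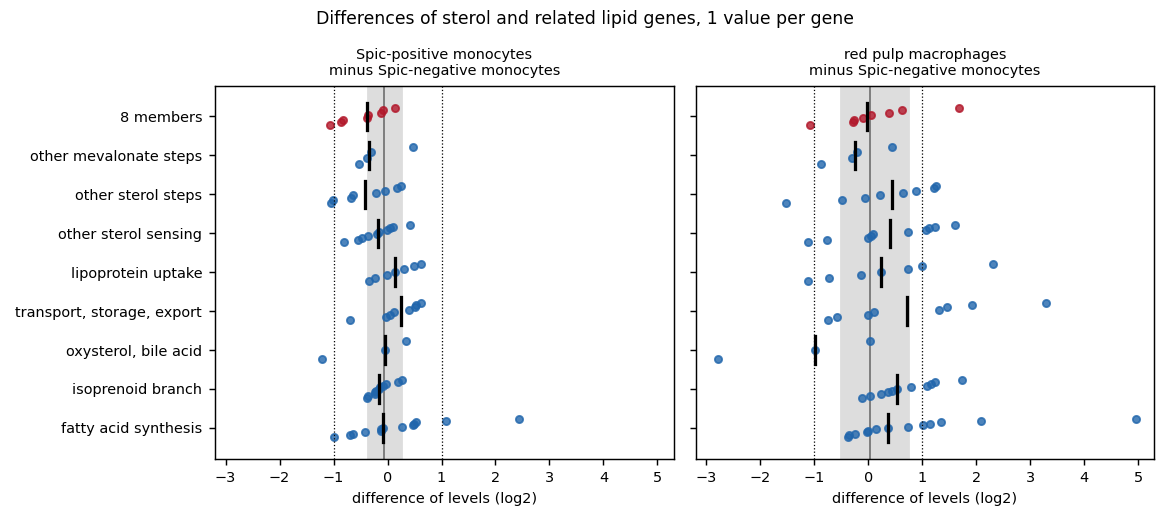
Differences of log2 levels (horizontal axis) of Spic-positive monocytes (left) and red pulp macrophages (right) against Spic-negative monocytes, 1 point per gene, grouped by step of the pathway (vertical axis). Black bars are medians, the grey band holds the middle quartiles of all 12375 genes with their median as a line, and dotted lines mark 2-fold; the medians of the 8 members, the other mevalonate steps and the other sterol steps are -0.37, -0.34 and -0.43 in the left panel and -0.02, -0.25 and 0.43 in the right.

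Lists next to sterol synthesis were set beside the members, and their difference from the members was not tested. Between the monocyte arrays 3.49% of all genes were at least 2-fold higher and 3.06% lower in Spic-positive monocytes. Isoprenoid branch genes, which draw on the same precursors for protein prenylation, ubiquinone and dolichol, had a median of -0.15 between the monocyte arrays over 11 genes. None was beyond 2-fold on the probe set that stands for it. Further probe sets of Dhdds differed by -1.21 and -1.16, and those of Pggt1b by 1.66 and -0.74. In macrophages the isoprenoid branch genes had a median of 0.53 against Spic-negative monocytes, with 4 of 11 higher, against 19.6% of all genes. Among the 4 was Rabggtb, a subunit of the enzyme that prenylates Rab proteins (1.73). Ggps1, the geranylgeranyl diphosphate synthase, was counted as higher from 1 probe set at 1.24, while its others were at 0.36, -0.73 and -1.28, so its direction is not settled. The same holds for Dhdds, counted as higher from 1 probe set at 1.16, with its others at -0.31 and -0.71. Fatty acid synthesis genes had a median of -0.08 over 13 genes between the monocyte arrays, with 2 higher, Scd1 and Acacb. Acacb had 4.23, 5.32 and 4.36, so it passed the floor only on the Spic-positive array, where it was high, and only narrowly. Scd1, stearoyl-CoA desaturase, had 5.59, 8.04 and 7.67, a difference of 2.44 on this probe set and 0.43 on the other. In macrophages 5 of 13 were higher and 0 lower than in Spic-negative monocytes, against 19.6% and 11.3% of all genes. Fads1, a fatty acid desaturase, had 4.55, 5.04 and 9.52, although its second probe set differed by -0.85.

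Transport, storage and export genes had a median of 0.26 over 8 genes between the monocyte arrays, with 0 beyond 2-fold. In macrophages their median was 0.71 against Spic-negative monocytes, with 4 of 8 higher, against 19.6% of all genes. Stard4, which carries cholesterol between membranes and is a known SREBP-2 target, was the lowest of them in Spic-positive monocytes. It had levels of 7.83, 7.13 and 7.08, and its 3 probe sets differed by -0.69, -0.93 and -0.45. Its relative Stard5 had 8.75, 9.28 and 10.67 and was higher in macrophages by 1.92, with 1.32 and 1.55 on its further probe sets. Only 3 oxysterol and bile acid genes were compared, and Cyp39a1, an oxysterol hydroxylase, had 7.99, 6.78 and 5.20, beyond 2-fold lower on both other arrays.

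Patterns most like the members were sought by the Euclidean distance of each gene's 3 centred log2 values from the members' mean, over the 10047 genes above the floor on every array. The nearest were Nek3, Rufy1, Grk6, Vbp1 and Fyco1, at distances of 0.01, 0.01, 0.01, 0.01 and 0.02. Over 3 arrays such likeness is weak: 589 genes lay nearer to the mean than its closest member, Fdft1, at 0.19. Srebf2 and Lss were the farthest members, at 1.15 and 1.10.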

How the data were processed

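Per the submitters' processing notes the authors made the deposited values with RMA, which corrects background, normalizes arrays by quantiles and summarises each probe set (no version is named in the sources used here). Biotinylated cRNA came from a 2-cycle kit, per the labels' protocols. The deposited values were taken as log2 from their range of 1.82 to 14.50. Quantile normalization hides differences in total RNA per cell. Scanner files were not used here.

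Of 45101 probe sets, 64 controls were left out. Of the rest, 34945 had 1 gene symbol, 932 had several and 9160 had none here, and 34741 symbols were brought up to date with a GRCm38.p6 gene table used for names. The probe set with the highest mean stood for a gene, and the 12375 genes whose brightest array passed the floor were compared. A difference was counted at 2-fold. No test was run, the number of arrays limits the precision, and the gene counting was tested on simulated data. Genes named are the members, genes of fixed lists, and the 5 genes most like the members. Members and lists were chosen with earlier results of these data known. Work was done in Python 3.11.15 (pandas 2.3.3, numpy 2.4.6, matplotlib 3.10.9), and cyclic loess in limma 3.58.1 under R 4.3.3. Alternatives changed the probe set rule, scaling, floor, fold and multi-transcript probe sets.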

Additional observations from a re-analysis of the deposited data

How the results depend on the processing

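No paired analysis was possible because each population had 1 array and the labels give no replicate numbers. The medians of the members and of the 29 further sterol genes moved by less than the pooled SD over probe sets of a member under each of the 8 alternatives run on them, but that SD is wide beside the medians. The members' median for macrophages against Spic-positive monocytes was between -0.02 and 0.81, near 0 with the median of probe sets and without multi-transcript ones, and that between the monocyte arrays was between -0.47 and -0.19. The further genes' median neared 0 between the monocyte arrays, between -0.26 and -0.01. Counts beyond 2-fold are small and moved easily. Between the monocyte arrays the members lower numbered 2 with the median of probe sets, 0 after quantile normalization again or cyclic loess, 3 at 1.5-fold and 0 at 4-fold, beside 1. The further genes lower numbered 0 with the mean, 1 with the median, 0 after either normalization, 1 without multi-transcript probe sets, 5 at 1.5-fold (and 1 higher) and 0 at 4-fold, beside 2. In macrophages against Spic-negative monocytes the members higher numbered 0 with the mean, the median or without multi-transcript probe sets, 2 at 1.5-fold and 0 at 4-fold, and those lower 2 without multi-transcript probe sets and 0 at 4-fold. The further genes lower numbered 1 with the mean, 5 without multi-transcript probe sets, 6 at 1.5-fold and 0 at 4-fold, and those higher 12 at 1.5-fold and 1 at 4-fold. Against Spic-positive monocytes the members higher numbered 1 with the mean, 0 without multi-transcript probe sets, 5 at 1.5-fold and 0 at 4-fold, and 1 was lower with the mean, the median, either normalization and 1.5-fold. The further genes lower numbered 2 after quantile normalization, 3 without multi-transcript probe sets, 4 at 1.5-fold and 0 at 4-fold, and those higher 0 at 4-fold. Lss in macrophages turned to -0.23 against Spic-negative and -0.17 against Spic-positive monocytes with the median of probe sets and without multi-transcript ones, and Hmgcs1 to -0.31 against Spic-positive monocytes without the latter. These settings change which probe sets give the value. Of all genes beyond 2-fold between the monocyte arrays, 53.3% were higher, and 42.4%, 61.1% and 63.3% after median centring, quantile normalization and cyclic loess, which moved the median of all genes to -0.13, 0.03 and 0.04.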
